A study of Xenopus tropicalis with 18 samples.

Results

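Hindgut was compared with head and pharynx, the ends of the anterior-posterior axis sampled in Xenopus tropicalis embryos, with 6 of the 18 libraries in the series. Hindgut and head with pharynx had 3 libraries each, chosen by the tissue named in the sample labels. Every library was made from messenger RNA of a pool of 8 explants of mesoderm with endoderm, dissected at Nieuwkoop and Faber stage 33 from wild-type embryos (adult stock Xtr.NigerianSt549). The labels give 0.1% DMSO, the drug solvent, for both groups. A control foregut group of 3 libraries, which had received 0.1% DMSO and 1 ng of a mismatch morpholino, entered the statistical fit and is used here as the tissue between the ends. The labels do not tie the explant pools to clutches or parents, and the p-values rest on the variation among pools, which may be partly technical.

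The vertebrate gut tube is regionalised along this axis before its organs are visible. Posterior Wnt, FGF and retinoic acid signals favour Cdx and posterior Hox transcription factors in the endoderm and mesoderm that form intestine. Where these signals are low or inhibited, other transcription factors mark the pharynx, from which pharyngeal pouches and thyroid arise. In the head, the mesoderm and endoderm lie against neural crest, brain and sense organs, whereas the hindgut lies close to the tailbud. The files name genes by identifiers alone, and 0 of 28863 identifiers matched a table of 28858 RefSeq genes. No gene is therefore tied to these factors here, the labelled tissues were not checked against marker genes, and the gene groups below are defined by level and by region.

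Total counts were 96814679, 57620353 and 29050035 in hindgut replicates 1, 2 and 3. In head with pharynx they were 60735837, 49124134 and 27103051. The total counts of the regions overlapped. A gene with no counts in a library allows up to 3 counts, which is at most 0.111 CPM, a gene's counts scaled to library size, in these 6 libraries and covers counting error only.

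Most genes tested had a different level at the ends of the axis. On the TMM scale used here, which itself favours a balance, the larger differences were nearly balanced in number between the directions. Among 18551 genes tested, 6236 were higher and 5772 lower in hindgut than in head with pharynx, which is 33.6% and 31.1% of the genes and 64.7% together (edgeR's quasi-likelihood test at 0.05 after Benjamini-Hochberg adjustment). At least 2-fold differences were found for 2752 higher genes (14.8%) and 2456 lower genes (13.2%), called hindgut-high and head-and-pharynx-high below. A test of whether the difference exceeded 2-fold was passed by 1950 higher genes (10.5%) and 1876 lower genes (10.1%). All 3 hindgut libraries lay above all 3 head with pharynx libraries for 6902 genes (37.2%) and below them for 6427 genes (34.6%), in log2 CPM. Being bulk tissue, these libraries cannot tell fewer cells of a type from less RNA per cell.

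The balance of directions depended on how libraries were scaled. TMM factors, which correct for a few abundant transcripts taking a large part of the counts, were 0.897 to 0.901 in hindgut and 1.12 to 1.13 in head with pharynx libraries. Of the genes called, 51.9% were higher in hindgut with these factors. With total counts alone 3966 genes were higher and 8919 lower (30.8% higher), and the median log2 fold change of all genes moved to -0.29, against 0.03 with TMM. With limma on the deposited TPM values 3563 were higher and 8347 lower (29.9% higher), with a median of -0.22. TPM values are also scaled for transcript length, which the count fits did not use. At 2-fold, total counts gave 2046 higher and 3342 lower genes, and limma on TPM 1292 and 2176. Past the test against 2-fold, total counts gave 1489 higher and 2444 lower genes. RLE factors, a scaling of the same kind as TMM, gave 6019 higher and 6019 lower genes, with a median of 0.002. Both kinds assume few or balanced differences and centre the fold changes near 0, whereas 64.7% of genes were called here. A near-even split is thus partly set by the scaling and is no result of its own. Directions given here are relative to the TMM scale. Of the genes called in both settings, 42 had the opposite direction with total counts and 36 with TPM.

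The sizes of the differences had a long tail on both sides. Among genes higher in hindgut, 2029 differed by less than 1.5-fold and 1455 by 1.5- to 2-fold. Another 1367 differed by 2- to 4-fold, 869 by 4- to 16-fold and 516 by 16-fold or more. Among genes lower in hindgut the same classes held 2204, 1112, 1155, 807 and 494 genes. The median log2 fold change of called genes was 0.87 for those higher in hindgut and -0.79 for those lower, with a median SE of 0.12 for each. Of the hindgut-high genes 140 had 3 or fewer counts over all head with pharynx libraries, and 221 head-and-pharynx-high genes had as few over all hindgut libraries, so their fitted folds depend on the prior count and are no measure of size.

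**Figure D1:**
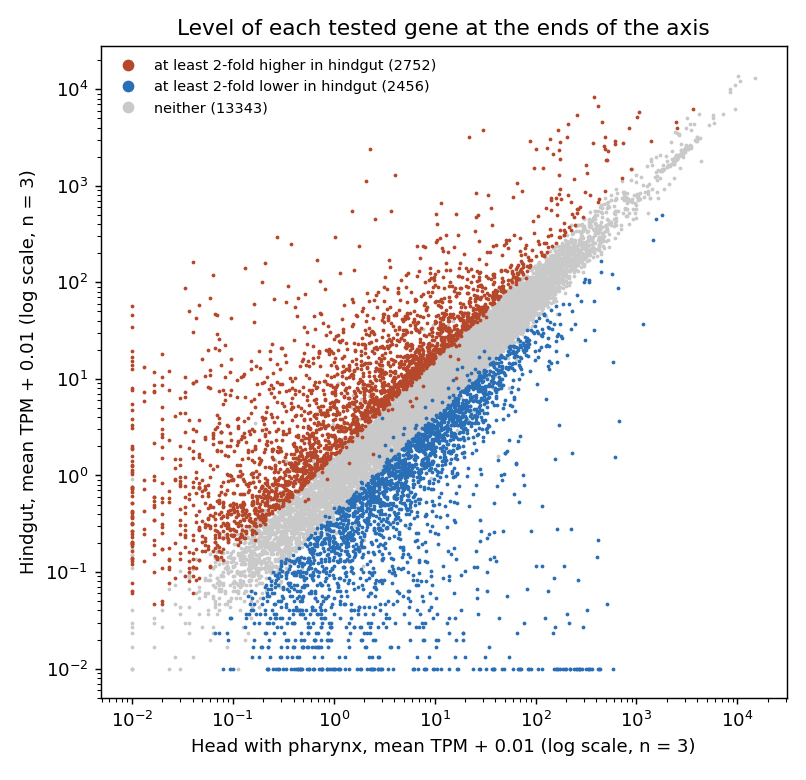
Each point is a tested gene, with its mean TPM (a level scaled for transcript length and library size) plus 0.01 in hindgut on the vertical and in head with pharynx on the horizontal log axis. Colours mark the 2752 genes at least 2-fold higher and the 2456 at least 2-fold lower in hindgut. The red points reach higher levels in their own region than the blue points do in theirs, and the lowest row of blue points are genes listed at 0 in hindgut.

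Genes for which the ends were alike in scaled counts were also numerous. The 95% interval of the fold lay within 1.5-fold in either direction for 5991 genes (32.3% of those tested). Of these, 2172 still passed the test for a difference. A control foregut mean at least 2-fold away from the mean of the ends was found for 42, 20 above it and 22 below it. The share of all tested genes with such a foregut mean is not given here. Genes with a narrow interval were selected, and foregut libraries entered its estimate of spread, so the 42 cannot be read as few or many. A further 2724 genes (14.7%) were neither called nor bounded within 1.5-fold, so nothing can be said of their difference at this depth and replication. The 5991 and 2724 genes were taken on the TMM scale alone. With total counts the median log2 fold change of all genes moved from 0.03 to -0.29, so which genes are alike can depend on the scaling.

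The identifiers named here are extremes, so their separation follows from their choice and does not describe the regions as a whole. These identifiers were the 2 largest called increases and decreases in log2 fold change. They were taken among genes with at least 10 TPM on average in the higher region and at least 1 count in every library of the lower region. XBXT10g013588 had 183, 124 and 182 TPM in the hindgut libraries, against 0.01, 0.06 and 0.02 TPM in head with pharynx. The hindgut values come from 320942 counts and the head with pharynx values from 47 counts, and the groups did not overlap. In CPM it was 5097-fold higher in hindgut (95% exact binomial interval 3833 to 6937, counting error only). The fitted log2 fold change was 12.60 ± 0.45 (SE, edgeR adjusted p = 2.16e-08). Of the 47 counts, 32 were in head with pharynx replicate 2, and without that library the log2 fold change was 13.59. This fitted value is on the TMM scale and the counting interval is on total counts, so they are not set against each other. The interval does not cover variation between libraries. In control foregut XBXT10g013588 had 361, 249 and 281 TPM, above every hindgut library.

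XBXT10g007695 had 57.7, 30.2 and 62.0 TPM in hindgut, against 0.02, 0.02 and 0.04 TPM in head with pharynx, where it rested on 6 counts in all. Its log2 fold change was 11.20 ± 0.72 (SE, edgeR adjusted p = 3.27e-06). Like the first gene it was lowest in replicate 2 among the hindgut libraries. In control foregut it had 81.6, 42.0 and 74.9 TPM, a range that overlaps that of hindgut.

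Among the decreases, XBXT10g018020 had 0.00, 0.05 and 0.03 TPM in hindgut, from 2, 9 and 2 counts, against 210, 222 and 177 TPM in head with pharynx. Its log2 fold change was -14.24 ± 0.26 (SE, edgeR adjusted p = 1.44e-11). This SE is derived from the F statistic and is too narrow for a gene with 13 counts in hindgut. In CPM the head with pharynx level was 25523-fold the hindgut level (95% exact binomial interval 14925 to 47934, counting error only). Hindgut replicate 2 held 9 of the 13 counts, and the log2 fold change was -15.34 without it and -13.43 without hindgut replicate 1. These fitted values are on the TMM scale and the interval is on total counts, so they are not set against each other. The size varied with the library left out, which the counting interval does not cover. Control foregut was at the hindgut end for this gene, with 0.01, 0.05 and 0.01 TPM.

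XBXT10g006051 had 0.02, 0.01 and 0.01 TPM in hindgut, from 5, 1 and 1 counts, against 66.0, 68.8 and 63.4 TPM in head with pharynx. Its log2 fold change was -11.62 ± 1.02 (SE, edgeR adjusted p = 3.85e-05), and -12.27 without hindgut replicate 1. Control foregut libraries differed among themselves, with 0.05, 1.83 and 1.13 TPM from 6, 152 and 74 counts, all far below head with pharynx. Foregut replicates 2 and 3 were above every hindgut library, whereas the 6 counts of replicate 1 are too few to set it apart from hindgut. Larger fitted values than these existed, since the identifiers ranked 9 and 18 among increases and 28 and 59 among decreases. The genes ahead of them had less than 10 TPM or a library without counts.

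The hindgut-high genes included more highly abundant transcripts than the head-and-pharynx-high genes. Of the hindgut-high genes 262 reached 100 TPM and 46 reached 1000 TPM in hindgut. Of the head-and-pharynx-high genes 116 reached 100 TPM and 4 reached 1000 TPM in head with pharynx. Of the 100 most abundant genes in hindgut 32 were hindgut-high, whereas 0 of the 100 most abundant in head with pharynx were head-and-pharynx-high. Among all tested genes the shares were 14.8% and 13.2%. The ranking by level and the calls used the same libraries, so this contrast is a description only. The median level in the higher region was 7.26 TPM for hindgut-high genes and 4.97 TPM for head-and-pharynx-high genes. These counts moved with the scaling but kept their order in every fit. With total counts 206 hindgut-high and 165 head-and-pharynx-high genes reached 100 TPM, 41 and 8 reached 1000 TPM, and 29 and 1 were among the 100 most abundant of their region. With limma on TPM the numbers were 201 and 169, 41 and 9, and 29 and 2. The ends shared 71 of their 100 most abundant genes and 7 of their 10 most abundant.

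The most abundant hindgut-high gene averaged 8267 ± 317 TPM in hindgut, against 380 ± 81.0 TPM in head with pharynx (SD, n = 3), with a log2 fold change of 4.77 ± 0.17 (SE, edgeR adjusted p = 2.05e-09). The second averaged 6744 ± 1021 TPM in hindgut, against 415 ± 61.6 TPM in head with pharynx. In control foregut these genes averaged 4691 ± 816 and 3193 ± 547 TPM (SD, n = 3), below hindgut and far above head with pharynx. The most abundant head-and-pharynx-high gene averaged 498 ± 45.4 TPM in hindgut, against 1777 ± 90.3 TPM in head with pharynx (SD, n = 3), with a log2 fold change of -1.50 ± 0.09 (SE, edgeR adjusted p = 2.30e-08). It averaged 867 ± 38.8 TPM in control foregut.

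Divided into quartiles by mean log2 CPM over both regions, the tested genes gave 1114 hindgut-high and 1144 head-and-pharynx-high genes in the lowest quartile, and 746 and 799 in the second. The third quartile held 451 hindgut-high and 356 head-and-pharynx-high genes and the highest quartile 441 and 157. In the highest quartile 9.51% of genes were hindgut-high and 3.39% head-and-pharynx-high, against 14.8% and 13.2% of all tested genes. Every count alternative except total counts gave more hindgut-high than head-and-pharynx-high genes in the highest quartile. Total counts alone turned it to 281 hindgut-high and 327 head-and-pharynx-high genes, and limma on TPM to 270 and 325.

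**Figure D2:**
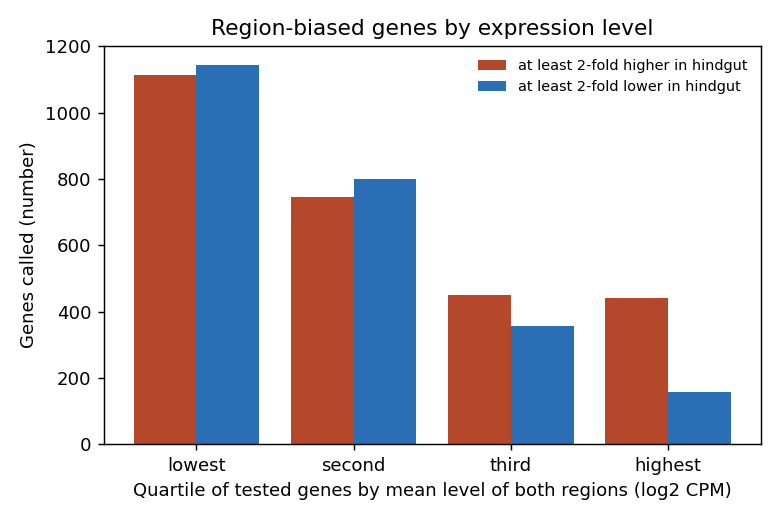
Bars give the number of tested genes at least 2-fold higher (red) or at least 2-fold lower (blue) in hindgut than in head with pharynx, by quartile of mean expression. The bars are close in the lowest quartile (1114 and 1144 genes) and far apart in the highest (441 and 157 genes) on the TMM scale, an order that total counts alone and TPM turn round.

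In hindgut 25.7, 24.9 and 25.6% of all counts fell on hindgut-high genes, against 5.80, 6.36 and 6.35% in head with pharynx. The mean was 25.4 ± 0.452% in hindgut, 20.3 ± 0.212% in control foregut and 6.17 ± 0.319% in head with pharynx (SD, n = 3). Head-and-pharynx-high genes took 1.38, 1.54 and 1.44% of counts in hindgut and 7.52, 7.04 and 7.45% in head with pharynx. Their mean share was 1.45 ± 0.0798% in hindgut, 2.53 ± 0.0614% in control foregut and 7.34 ± 0.258% in head with pharynx (SD, n = 3). These shares describe genes chosen on the hindgut and head with pharynx libraries, so their separation there is not a result of its own. Foregut libraries entered the filter, the scaling and the estimate of spread behind that choice, but not its contrast, and lay between the ends in both shares, nearer to hindgut. With the 6 libraries of the ends alone, 18236 genes were tested and the lists held 2619 and 2506 genes. The 10 most abundant hindgut-high genes made up 23.9% of the summed hindgut TPM of their list, and the 10 most abundant head-and-pharynx-high genes 16.6% of the summed head with pharynx TPM of theirs.

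**Figure D3:**
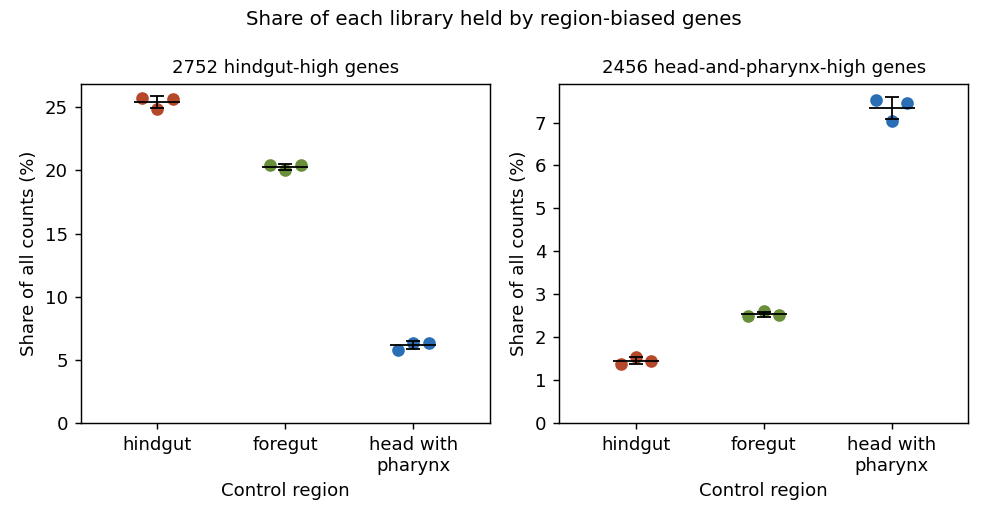
Points are libraries and give the percentage of all counts on the 2752 hindgut-high genes (left) and the 2456 head-and-pharynx-high genes (right), with the mean and SD of 3 libraries per region in black. Foregut lies between the ends in both panels, at 20.3% and 2.53%.

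The number of genes at 1 TPM or more also differed between the regions. At 1 TPM or more 14817, 14733 and 14865 genes were found in hindgut, against 15354, 15353 and 15412 in head with pharynx. All hindgut libraries were lower, and an exact permutation test (two-sided) gave p = 0.1, which is as low as groups of 3 can reach. TPM is a relative scale, and the lower TMM factors of hindgut make 1 TPM a stricter cut there. Genes with any count numbered 20952, 20433 and 20204 in hindgut and 20749, 20362 and 20373 in head with pharynx. Those numbers overlap and depend on depth. Whether hindgut expressed fewer genes was not tested. The 100 most abundant genes held 37.4 ± 0.643% of TPM in hindgut, against 35.5 ± 0.392% in head with pharynx (SD, n = 3, exact two-sided permutation p = 0.1). The 10 most abundant genes held 10.1, 9.61 and 9.33% of TPM in hindgut and 8.87, 9.35 and 8.96% in head with pharynx, which overlap (exact two-sided permutation p = 0.2).

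Some genes were detected at one end and not at the other. Genes with at least 1 TPM in all libraries of one region and at most 0.1 TPM in all libraries of the other numbered 100 for hindgut and 214 for head with pharynx. Of these, 99 and 213 passed the filter on low counts, and 99 and 212 were called, as their definition makes likely. The median of the lowest count in the region of expression was 224.5 for hindgut-only genes and 310 for head-and-pharynx-only genes, so detection there did not rest on a few counts. In the other region the median was 3 counts over 3 libraries for both classes. No counts at all were found there for 21 hindgut-only genes and 75 head-and-pharynx-only genes.

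Head-and-pharynx-only genes reached higher levels than hindgut-only genes. Their mean TPM in head with pharynx had a median of 7.47 and a maximum of 585. For hindgut-only genes in hindgut the median was 6.02 and the maximum 163, which is XBXT10g013588. At least 10 TPM was reached by 32 hindgut-only genes and by 91 head-and-pharynx-only genes. At least 100 TPM was reached by 2 hindgut-only genes and by 37 head-and-pharynx-only genes. Summed over its class, hindgut-only expression was 1554, 1171 and 1568 TPM in the hindgut libraries, lowest in replicate 2. Head-and-pharynx-only expression summed to 11238, 10932 and 13563 TPM in the head with pharynx libraries. The number of head-and-pharynx-only genes was above that of hindgut-only genes under every threshold tried and with any 1 library of the ends left out. Every threshold was on TPM or on counts, and none was on the TMM scale. By the TMM factors given above, cuts on TPM are stricter for hindgut-only genes. How far the difference in number and level between the classes depends on scaling was not tested.

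The classes behaved differently in control foregut, whose libraries were not used to define them. Of the 100 hindgut-only genes, 71 had at least 1 TPM in all 3 foregut libraries, 7 had at most 0.1 TPM in all 3 and 22 lay between. Of the 214 head-and-pharynx-only genes, 15 had at least 1 TPM in all 3 foregut libraries, 129 had at most 0.1 TPM in all 3 and 70 lay between. By library, 76, 76 and 74 hindgut-only genes and 20, 22 and 21 head-and-pharynx-only genes were detected in foregut. Over all 28863 identifiers, 15447, 15327 and 15280 reached 1 TPM in these libraries. Foregut also differed from both ends by its mismatch morpholino. The median foregut level was 106% of the hindgut level for hindgut-only genes, 53 of which were higher in foregut, and 0.655% of the head with pharynx level for head-and-pharynx-only genes. Most hindgut-only genes were thus also detected in control foregut, and most head-and-pharynx-only genes were not detected in either gut region.

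**Figure D4:**
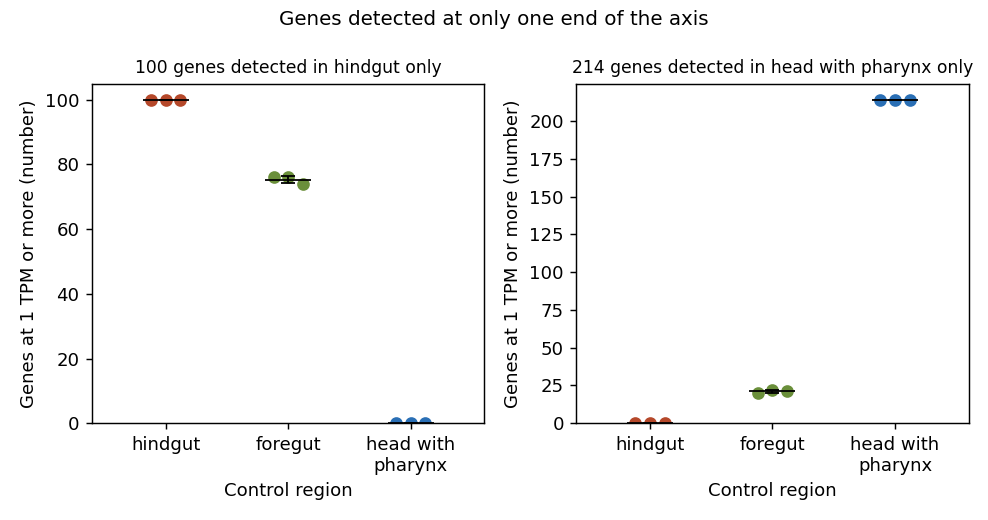
Points are libraries and give how many of the 100 genes detected in hindgut only (left) and of the 214 detected in head with pharynx only (right) reached 1 TPM, with the mean and SD of 3 libraries in black. The ends are at all or none by definition, and the foregut libraries hold 74 to 76 of the hindgut-only and 20 to 22 of the head-and-pharynx-only genes.

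The same question was asked of all region-biased genes. The place of the foregut mean between the ends was computed for each gene on log2 CPM, so that 1 stands for the mean of hindgut and 0 for that of head with pharynx. Hindgut-high genes had a median position of 0.80, with quartiles of 0.56 and 1.09. Of these, 1539 (55.9%) lay above 0.75, near or above the hindgut level, 984 (35.8%) between 0.25 and 0.75, and 229 (8.32%) below 0.25, near the head with pharynx level. Foregut exceeded hindgut for 887 hindgut-high genes (32.2%). Head-and-pharynx-high genes had a median position of 0.69, with 1037 (42.2%) above 0.75, 1189 (48.4%) in the middle and 230 (9.36%) below 0.25. Over the 3 foregut libraries the median position was 0.811 ± 0.00619 for hindgut-high and 0.688 ± 0.0146 for head-and-pharynx-high genes (SD, n = 3). This SD covers the spread of the foregut libraries alone, not that of the ends that set 0 and 1.

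On log2 CPM the median position of foregut was nearer to hindgut in the classes of larger difference between the ends. Position is divided by the same difference that sorts genes into these classes. A foregut level at a fixed ratio to hindgut thus gives a position nearer to 1 in a class of larger difference. How much of the rise over classes comes from this was not tested. For genes that differed 2- to 4-fold the median position was 0.72 for hindgut-high and 0.65 for head-and-pharynx-high genes. At 4- to 16-fold it was 0.83 and 0.67, and at 16-fold or more 0.95 and 0.91. The last class holds 129 hindgut-high and 215 head-and-pharynx-high genes with 3 or fewer counts over the lower region, where a foregut level near 0 gives a head-and-pharynx-high gene a position near 1. Without such genes its medians were 0.91 and 0.83. On linear TPM the medians by class were 0.70, 0.72 and 0.93 for hindgut-high and 0.78, 0.85 and 0.99 for head-and-pharynx-high genes, and without such genes 0.75 and 0.98 at 16-fold or more. Of the 516 hindgut-high genes at 16-fold or more, 71.5% lay above 0.75 and 3.10% below 0.25. Of the 494 head-and-pharynx-high genes at that size, 68.0% lay above 0.75 and 7.89% below 0.25. The genes were chosen for their difference between the ends, and how far that choice sets the place of foregut was not tested. Over all classes the medians on linear TPM were 0.73 for hindgut-high and 0.84 for head-and-pharynx-high genes, so the order of the lists depends on the scale. The foregut embryos alone had received a mismatch morpholino, which cannot be told apart from foregut position here.

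**Figure D5:**
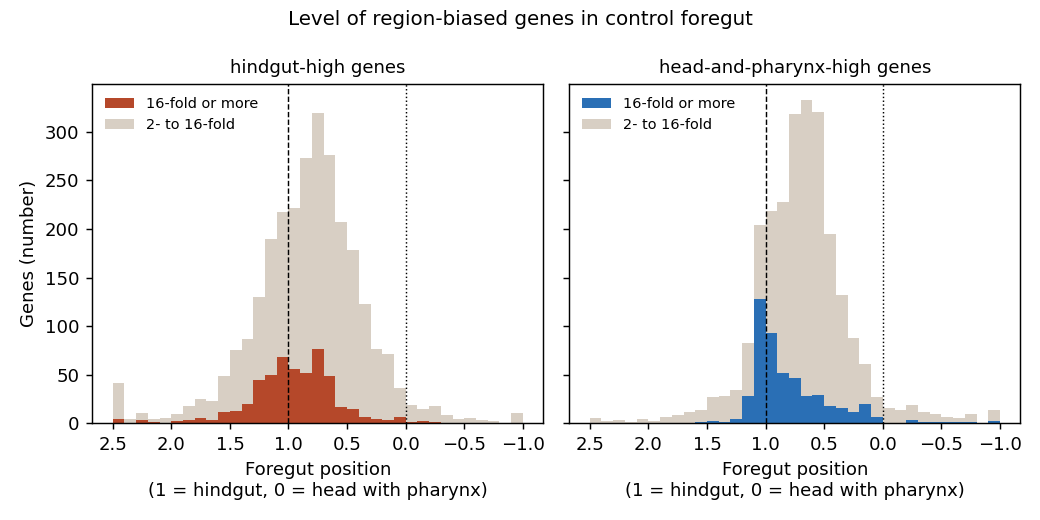
Histograms of the place of the control foregut mean between the ends, for hindgut-high (left) and head-and-pharynx-high genes (right), in log2 CPM and in bins of 0.1, with values beyond the axis in the outer bins. The dashed line is the hindgut mean (1) and the dotted line the head with pharynx mean (0), and genes that differ 16-fold or more, in colour, gather near the hindgut line with medians of 0.95 and 0.91.

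Region was the main source of variation among the 9 control libraries. The first principal component held 75.7% of the variance of log2 CPM, and along it hindgut and foregut lay on one side and head with pharynx on the other. The second held 14.9% and set hindgut apart from foregut. Between hindgut and head with pharynx libraries the median absolute log2 difference over genes was 0.500 to 0.583 in 9 pairs. Within hindgut it was 0.174, 0.125 and 0.162, and within head with pharynx 0.127, 0.127 and 0.133. Replicates differed by more than sampling noise, so no library was counted as a copy of another.

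Calls made from part of the libraries were seen again in the rest. With replicate number 1 left out of all regions, 2406 genes were at least 2-fold higher in hindgut and 2260 at least 2-fold lower. In the left-out libraries 99.5% of the higher and 99.7% of the lower genes had the same direction, relative to the median of the tested genes. With number 2 left out the shares were 98.1% and 99.2%, and with number 3 left out 99.2% and 99.6%. The fold was again at least 2-fold for 77.6 to 90.7% of the higher and 85.7 to 94.0% of the lower genes.

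Hindgut replicate 2 differed most from its group. Among genes with at least 5 TPM in some hindgut library, 37 were at least 2-fold below both other hindgut libraries there, and 33 of these were hindgut-high. Of all tested genes 14.8% were hindgut-high. The rule on hindgut TPM favours such genes, and their share among the genes searched is not given here. In replicates 1 and 3 the numbers of genes at least 2-fold below both others were 3 and 0. Those 37 genes summed to 2174, 967 and 2094 TPM in hindgut replicates 1, 2 and 3, to 6663, 2540 and 5857 TPM in foregut and to 62.8, 66.4 and 107 TPM in head with pharynx. Control foregut, whose libraries did not choose these genes, was also lowest in replicate 2, and head with pharynx was not. Without hindgut replicate 2, 2811 genes were at least 2-fold higher and 2473 lower in hindgut, 118 genes were hindgut-only and 231 head-and-pharynx-only.

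Direction was also set beside transcript length, which was not a term in the choice of genes. Relative lengths were taken from the ratio of deposited counts to TPM, with the median gene at 1. That ratio rests on the same counts that chose the genes, and for a single gene it can differ between regions. How far this sets the trend with length was not tested. In the shortest quartile of genes 32.9% were higher and 24.4% lower in hindgut, and in the longest quartile 31.9% were higher and 38.3% lower, against 33.6% and 31.1% of all tested genes. The median log2 fold change was 0.09 in the shortest and -0.06 in the longest quartile. Within quartiles of expression level, from the lowest to the highest, the longest minus the shortest genes gave -0.31, -0.33, -0.12 and -0.12. Over libraries, the mean log2 CPM of the longest minus the shortest quartile was 1.39, 1.51 and 1.41 in hindgut and 1.58, 1.49 and 1.52 in head with pharynx. These values overlap, since hindgut replicate 2 exceeds head with pharynx replicate 2 (exact two-sided permutation p = 0.2). The smallest p this test can give is 0.1, so it cannot decide whether the difference exceeds the spread between libraries. With any 1 library of the ends left out, the longest minus the shortest quartile stayed negative in median log2 fold change, at -0.188 to -0.120. RNA integrity was not tested.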

How the data were processed

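RNA was read from libraries made with a stranded messenger RNA kit, per the labels' protocols. The deposited tables hold estimated counts, all of them whole numbers (100%), and TPM, which the authors scaled for length and depth. The submitters' processing notes list Bowtie2 and RSEM 1.3.0. Genome build and annotation were not given in the sources used here. Reads from near-identical gene copies may have been split between them, which leaves single identifiers uncertain where such copies exist. Columns were tied to samples by titles. The entry without a gene name held 0 counts.

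Tests on the counts used edgeR 4.0.16 (R 4.3.3, quasi-likelihood test with robust fitting, glmTreat for the test against 2-fold, TMM, expression filter with a minimum count of 10, group as the only term) over 9 control libraries, with a common coefficient of variation of 0.119. Log2 CPM used a prior count of 2. Each SE of a log2 fold change is its absolute value divided by the square root of the quasi-likelihood F statistic. Intervals of the fold within 1.5-fold were built from it. Where counts are low this SE is approximate and can be too narrow. DESeq2 1.42.0 and limma 3.58.1, on log2(TPM + 1), were alternatives. Permutation tests and intervals used SciPy 1.17.1. On simulated counts for hindgut against head with pharynx over 18551 genes, 31 of 50 genes changed 1.5-fold were recovered, 45 at 2-fold, 50 at 4-fold and 48 at 8-fold. There were 11 false calls among 18351 unchanged genes. The changed genes had a mean count of at least 50, were few and were balanced in direction. In the data 64.7% of genes were called, so these rates do not cover low-count genes or errors of scaling.

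The comparison, gene classes and rules were chosen with earlier results of these data known. The 20 gene lists and marker lists prepared by symbol could not be used, and named identifiers follow the rule given with them. No sequences are shown, since identifiers matched no reference gene.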

Additional observations from a re-analysis of the deposited data

How the results depend on the processing

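Of the counts of genes, those higher in hindgut (6236) came to 3966 with total counts and 3563 with limma on TPM, and those lower (5772) to 8919 with total counts. Genes at least 2-fold higher (2752) came to 1292 with limma on TPM, a setting that changes scaling, use of transcript length, pseudocount and test together. All other fits, with 6 libraries, RLE factors, no filter, DESeq2 or thinned libraries among them, kept every count of calls within 1.5 times. These fits used TMM or RLE factors, so they do not check the balance of directions against the scaling. Without any 1 library, counts were 5625 to 6584 higher, 5233 to 5953 lower, 2611 to 2836 and 2375 to 2509 at 2-fold, and 1786 to 2069 and 1759 to 1947 past the test against 2-fold. Thinning, leaving out foregut replicate 2 of the fit, counting abundant genes under each fit and the checks of foregut position by fold class were chosen after seeing the data.

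Hindgut-only genes (100) fell to 44 at 5 TPM and 20 with exactly 0 in the other region, and head-and-pharynx-only genes (214) to 119 and 76. Leaving out 1 library gave 101 to 126 and 215 to 236. At 4-fold, hindgut-high genes held 16.4% of hindgut counts and head-and-pharynx-high genes 3.46% of head with pharynx counts, and on TPM the 2-fold lists held 23.1% and 5.81%. The foregut position of 0.80 for hindgut-high and 0.69 for head-and-pharynx-high genes was 0.73 and 0.84 on linear TPM and 0.81 and 0.70 without foregut replicate 2. The cause of these shifts was not tested, beyond the stricter rules themselves. The 4 named identifiers kept direction and call in every fit, with log2 fold changes of 12.05 to 13.59 (XBXT10g013588), 10.95 to 11.47 (XBXT10g007695), -15.34 to -13.43 (XBXT10g018020) and -12.27 to -11.31 (XBXT10g006051) without 1 library.

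With the replicate number as a block, 6446 genes were higher and 5945 lower, 2751 and 2466 of them at least 2-fold, and 2000 and 1903 passed the test against 2-fold. Deviations of same-numbered hindgut and head with pharynx libraries correlated at -0.00765, 0.0429 and 0.0830, so the numbers were not taken to pair them, and not every library correlated best with its own number. Depth limits what a level of 0.1 TPM can show in the shallowest libraries, and a rule on counts gave 99 hindgut-only and 205 head-and-pharynx-only genes.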

Other observations

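The genes detected at one end only were also read in treated foregut, which had received 40 uM cyclopamine, a Hedgehog pathway inhibitor, 100 nM BMS493, a retinoic acid receptor inverse agonist, or 1 ng of Rfx6 morpholino with 0.1% DMSO. The labels name neither a morpholino nor DMSO for the drug groups, whereas control foregut had 1 ng of mismatch morpholino with 0.1% DMSO, so drug and morpholino cannot be told apart there. Of the 214 head-and-pharynx-only genes 41 to 43 reached 1 TPM in cyclopamine foregut, 149, 151 and 212 in BMS493 foregut and 39, 40 and 138 in Rfx6 morpholino foregut, against 20 to 22 in control foregut. No treated library overlapped the control libraries in this number (exact two-sided permutation p = 0.1 in each, the smallest possible, and 0.12 adjusted over 6 comparisons). Of the 100 hindgut-only genes 66 to 77 were detected in cyclopamine foregut (exact permutation p = 0.4), 50 to 56 in BMS493 foregut and 86 to 93 in Rfx6 morpholino foregut (exact permutation p = 0.1 in both), against 74 to 76 in control foregut. The comparisons share their control libraries. Over all genes, 15512 to 15713 reached 1 TPM in BMS493 foregut, above the 15280 to 15447 of control foregut, whereas the 15244 to 15423 of cyclopamine foregut and the 15189 to 15481 of Rfx6 morpholino foregut overlapped control foregut. In the BMS493 group and the Rfx6 morpholino group replicate 3 stood apart from the other replicates, and without it the head-and-pharynx-only genes numbered 149 and 151 and 39 and 40. Summed over these genes, replicate 3 had 9711 TPM in BMS493 foregut, against 2601 and 2557 TPM in replicates 1 and 2. In Rfx6 morpholino foregut it had 2458 TPM, against 508 and 484 TPM. In cyclopamine foregut replicate 3 held 77 hindgut-only genes, against 66 and 68. Replicate 3 was the shallowest library in every group, and the cause was not tested.

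XBXT10g018020 had 1.98 to 2.45 TPM in cyclopamine foregut, 60.8 to 71.0 TPM in BMS493 foregut and 15.97, 16.5 and 51.6 TPM in Rfx6 morpholino foregut, against at most 0.05 TPM in control foregut. XBXT10g013588 had 133 to 175 TPM in cyclopamine foregut, 45.6 to 78.5 TPM in BMS493 foregut and 207 to 238 TPM in Rfx6 morpholino foregut, against 249 to 361 TPM in control foregut. XBXT10g007695 had 39.2 to 52.4, 13.0 to 19.3 and 59.7 to 63.4 TPM in cyclopamine, BMS493 and Rfx6 morpholino foregut, against 42.0 to 81.6 TPM in control foregut. XBXT10g006051 had 20.8 to 21.8, 43.5 to 48.0 and 10.2 to 20.2 TPM in the same groups, against 0.05 to 1.83 TPM in control foregut. Of these ranges, only those of XBXT10g007695 in cyclopamine and Rfx6 morpholino foregut overlapped control foregut. These genes were chosen on the untreated ends of the axis, and no test was made.

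Numbers within identifiers carried no regional pattern. Over 14591 pairs of tested genes with consecutive numbers, the log2 fold changes of hindgut against head with pharynx had a Pearson correlation of 0.00715, and at a distance of 1000 the correlation was -0.00595. Of 1141 consecutive pairs in which both genes differed at least 2-fold, 48.7% had the same direction. Whether the numbering follows genome order was not tested.

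Same-numbered hindgut and control foregut libraries deviated together from their group means, at correlations of 0.129, 0.296 and 0.125 over 18551 genes for numbers 1, 2 and 3. Every hindgut library correlated best with the foregut library of its own number, which was not the case between hindgut and head with pharynx. The margin was small for hindgut number 1, which correlated at 0.104 with foregut number 3. Deviations within a group are tied through its mean, so these correlations are not independent of each other, and number 2 had the largest.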
